A study of Mus musculus with 40 samples.

Results

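The genes described here are the nuclear genes of the mitochondrial respiratory chain and the ATP synthase. They were chosen by symbol, as all genes that start with *Nduf*, *Uqcr*, *Cox4* to *Cox8* or *Atp5*, the *Sdha*, *Sdhb*, *Sdhc* and *Sdhd* genes, *Cyc1* and *Cycs*. The rule used no measured value and found 83 of the 16475 genes on the array. Of these, 33 encode subunits of complex I, 4 of complex II, 7 of complex III, 18 of complex IV and 12 of complex V, 8 encode assembly factors of complex I (*Ndufaf1* to *Ndufaf8*) and 1 encodes cytochrome c (*Cycs*). *Ndufa4*, *Ndufa4l2* and *Cox7a2l* were counted with complex IV, to which the first belongs, and *Cyc1* with complex III.

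The respiratory chain sits in the inner mitochondrial membrane. Complex I takes electrons from NADH and complex II takes them from succinate, complex III passes them on to cytochrome c, and complex IV hands them to oxygen. Complexes I, III and IV pump protons, and complex V, the ATP synthase, lets the protons flow back and makes ATP. In skeletal muscle the chain is known to be dense in slow and oxidative fast fibers and sparse in glycolytic fast fibers. Some of its subunits come as isoforms, with a form typical of heart and skeletal muscle and a form found in most tissues.

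Both the gastrocnemius and the quadriceps had been hybridised to Affymetrix Mouse Genome 430 2.0 arrays, 40 in all, from 20 male mice of the C57BL/6J strain (C56BL/6J in the sample labels). The question was which genes differ between the muscles and whether a diet rich in fat alters them. There were 4 groups of 10 arrays: gastrocnemius of high fat diet (HFD) mice, quadriceps of HFD mice, gastrocnemius of low fat diet (LFD) mice and quadriceps of LFD mice. The HFD held 45 kcal% fat and the LFD 10 kcal% fat. All mice were 9 weeks old when a run-in of 3 weeks on the LFD began, then stayed on their diet for 8 weeks, were 20 weeks old at dissection and had been fasted for 6 h. Before they were killed the mice of both diets were anesthetized with isofluorane, nitrous oxide and oxygen. Each array held RNA of dissected muscle tissue, so that fewer fibers of a type and less RNA per fiber cannot be told apart. The paper's methods do not state if a whole muscle or a part was homogenised. In the labels the protocol for RNA extraction speaks of the quadriceps alone, and the muscle was taken from the title of each sample.

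A signal intensity is the brightness of a gene's probes on a linear scale, and the number of arrays limits its precision. Genes with a mean signal intensity over 20 across the 40 arrays were tested (6479, 39.3%), and array medians lay between 8.8 and 9.4. Of the 83 genes, 76 were tested, and 65 of these had a mean signal intensity over 1000. The 4 skeletal muscle markers (*Acta1*, *Ckm*, *Myod1* and *Des*) were over 20 in all groups. The muscles differed in markers of fiber type: 6 of 7 tested slow fiber markers were higher in the gastrocnemius in each diet, with a median log2 fold change over the 7 of 2.93 in HFD mice and 2.66 in LFD mice. *Myh2*, the myosin of oxidative fast fibers, was also higher, by 0.49 in HFD mice (limma, adjusted p = 0.0044) and 0.44 in LFD mice (adjusted p = 0.0345). None of the 7 markers of glycolytic fast fibers passed the FDR in limma (0 and 1 at an unadjusted p under 0.05 in HFD and LFD mice). Other cell types moved with the muscle too. The summed signal intensity of the 6 neutrophil markers lay between 30.1 and 37.2 in the gastrocnemius and between 29.4 and 12665.5 in the quadriceps of HFD mice, and between 29.1 and 36.9 in the gastrocnemius and between 28.1 and 2543.9 in the quadriceps of LFD mice. *S100a9*, a neutrophil marker, was over 100 in the quadriceps of 6 HFD and 4 LFD mice and in no gastrocnemius. At an FDR under 0.05, 1 (HFD) and 3 (LFD) of 5 tested adipocyte markers were lower in the gastrocnemius, while 3 of 3 tested Schwann cell markers in each diet, and 2 (HFD) and 1 (LFD) of 4 tendon markers, were higher. At the same FDR 1 of 2 tested markers of cardiac or smooth muscle was higher in the gastrocnemius in each diet. *Alas2*, the 1 tested marker of red cell precursors, reached 25.7 in the gastrocnemius and 73.4 in the quadriceps of HFD mice. In LFD mice it reached 19.9 and 68.4. It passed the FDR, lower in the gastrocnemius, only with both diets averaged. The part of these cells in the results below was not tested. Some fits left out the quadriceps arrays with *S100a9* over 100, but these arrays also differed in the slow myosin *Myh7*. In HFD mice *Myh7* lay between 78.2 and 395.8 on the arrays left out and between 4.9 and 70 on those kept. In LFD mice it lay between 211.9 and 842.6 and between 3.2 and 422.2. These fits hold fewer arrays and cannot tell neutrophils or other cells from fiber type.

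The level of a complex was taken as the median over its tested genes of the log2 signal intensity, each gene set to a mean of 0 over the 40 arrays. It differed little between the 4 groups. For complex I, HFD mice had a mean level of -0.0046 ± 0.0471 in the gastrocnemius, against 0.0057 ± 0.0594 in the quadriceps, and LFD mice of 0.0041 ± 0.0517 in the gastrocnemius, against -0.0004 ± 0.0224 in the quadriceps (SD, n = 10 mice). All 4 groups overlapped. Complexes II to V gave the same picture, with group means between -0.0303 (complex II, gastrocnemius of LFD mice) and 0.0329 (complex II, quadriceps of LFD mice) and SDs of 0.0412 to 0.1029. The assembly factors had the widest span of group means. HFD mice had a mean of -0.0615 ± 0.0742 in the gastrocnemius, against -0.0026 ± 0.1051 in the quadriceps, and LFD mice of -0.0133 ± 0.0669 in the gastrocnemius, against 0.0779 ± 0.0476 in the quadriceps. Within a mouse, the median difference over the 8 assembly factors was lower in the gastrocnemius of 6 of 10 HFD mice and 9 of 10 LFD mice, and over all 76 genes it was lower in 4 of 10 HFD mice and 6 of 10 LFD mice.

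**Figure D1:**
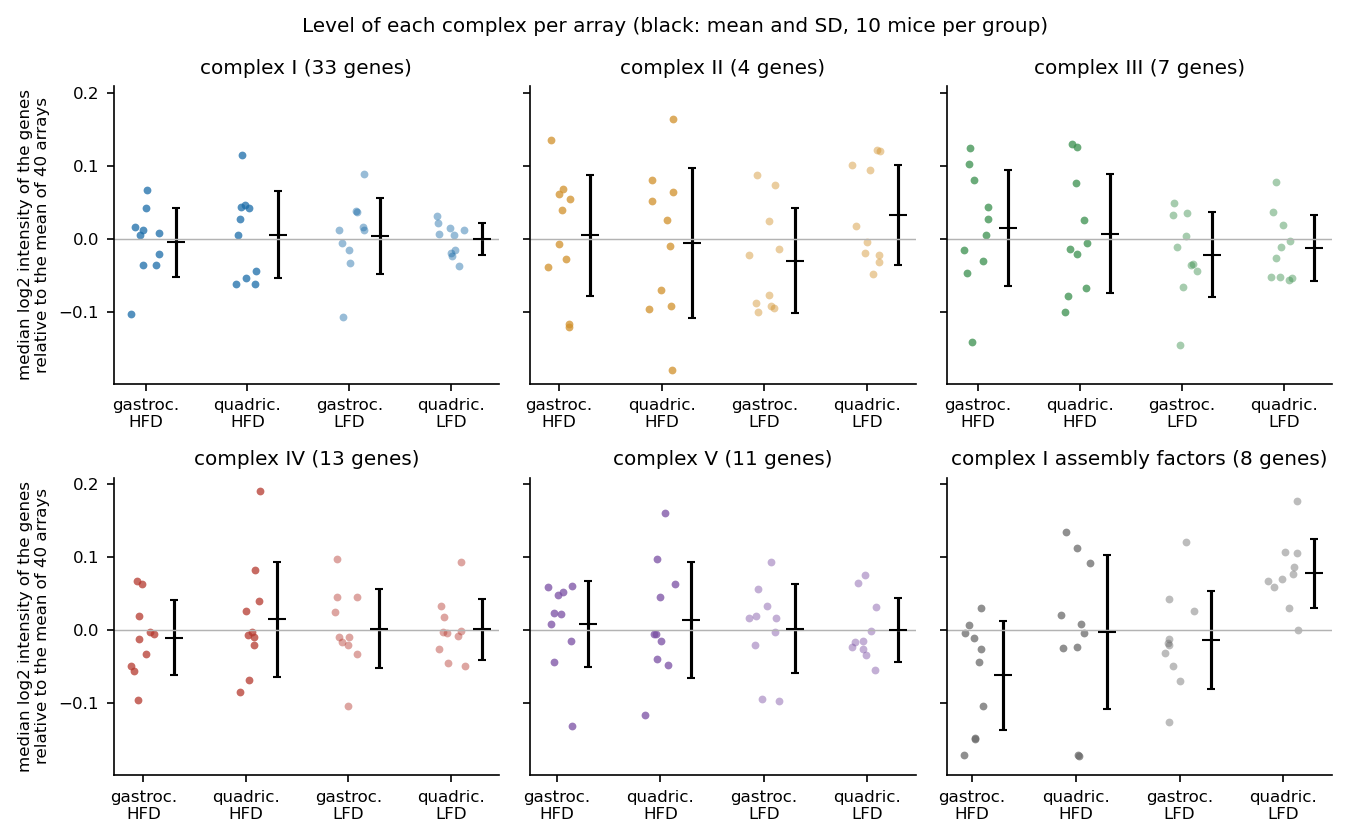
Level of each respiratory complex and of the complex I assembly factors on every array (vertical axis, median log2 signal intensity of the genes relative to the mean of 40 arrays) in the 4 groups of 10 mice; points are arrays, black marks are means with SD. The groups overlap in every panel, and the assembly factors of the LFD quadriceps have the highest mean, 0.0779.

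For single genes, no subunit or assembly factor met both criteria of the study between the muscles, an FDR under 0.05 and a fold change over 1.3, in either diet. Over all tested genes these criteria called 3.46% in HFD mice and 2.52% in LFD mice. At the FDR alone, 2 of the 76 genes passed in HFD mice, *Cox7a1* and *Ndufaf5*, both lower in the gastrocnemius, and 0 passed in LFD mice, against 6.62% and 5.22% of all tested genes (3.3% in HFD mice for genes lower in the gastrocnemius). By limma, at an unadjusted p under 0.05 there were 6 of 76 genes in HFD mice and 6 of 76 in LFD mice, where all tested genes gave 18.7% and 19%. Both muscles came from the same mouse, and the pairing changed the count in LFD mice: with the mouse as a block, 2 (fixed) or 5 (random) of the 76 genes passed the FDR, all lower in the gastrocnemius, while the count over all 6479 tested genes was 694 or 917, against 338 without the block. The median log2 fold change of the 76 genes, gastrocnemius over quadriceps, was -0.0096 in HFD mice and -0.0022 in LFD mice, beside -0.0162 and -0.0105 for all tested genes. The muscles overlapped for all 76 genes in both diets. The share of all tested genes without overlap was not counted, so that this does not set the 76 genes apart.

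The spread was small enough to bound the differences. In HFD mice 75 of the 76 genes and in LFD mice 76 had a 95% confidence interval that lay within a 1.3-fold difference, as did 76.2% and 78.4% of all tested genes. A fitted difference over 1.1-fold was seen for 3 of the 76 genes in HFD mice (*Ndufaf5* and *Cox7a1*, lower in the gastrocnemius, and *Ndufs4*, higher) and 2 in LFD mice (*Ndufaf5* and *Ndufaf3*, lower), against 27.1% and 27.3% of all tested genes. The 76 genes also varied less between mice than most: HFD mice had a median SD of log2 signal intensity of 0.0885 for them in the gastrocnemius, against 0.1003 in the quadriceps, where all tested genes had 0.1797 and 0.1858, and LFD mice of 0.089 and 0.0808, where all tested genes had 0.1784 and 0.1739. Most of the 76 have bright probe sets, and how much of this smaller spread goes with signal intensity was not tested.

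**Figure D2:**
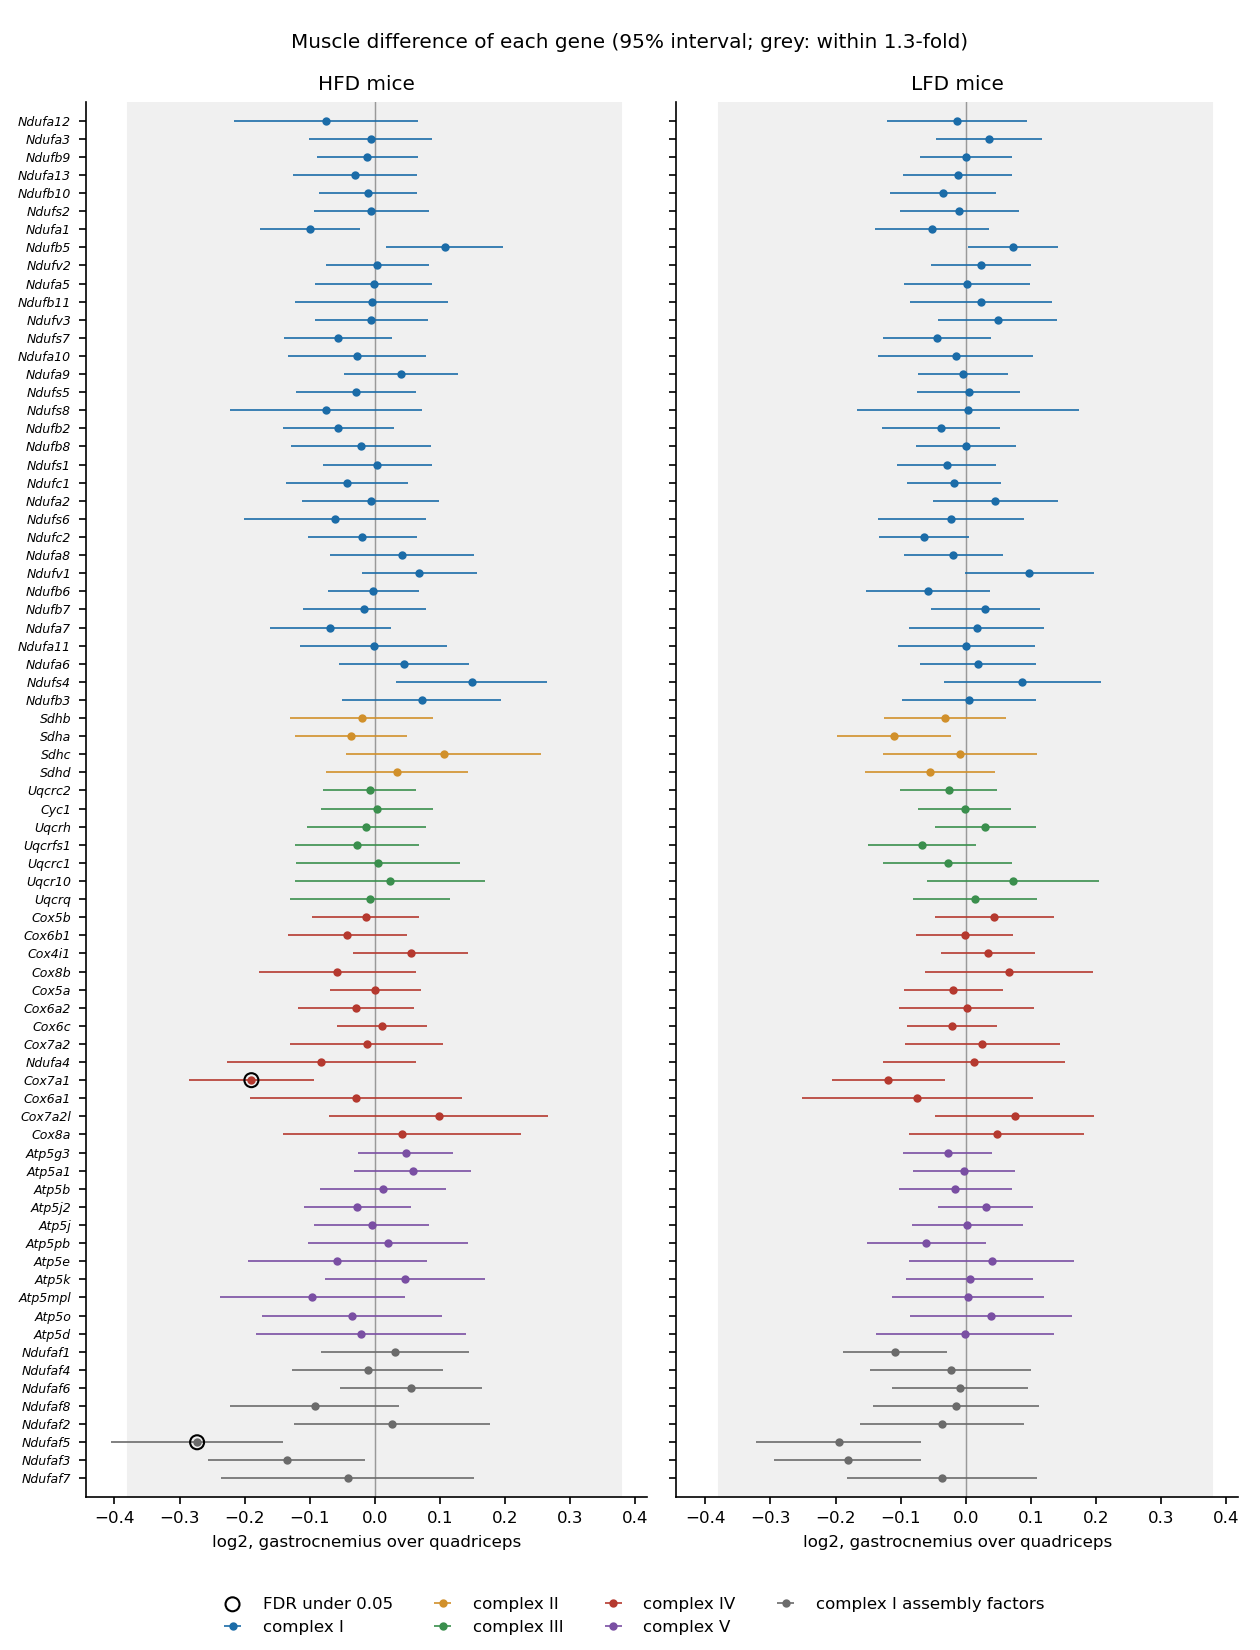
Difference between the muscles for each of the 76 tested genes (horizontal axis, log2 fold change of gastrocnemius over quadriceps with its 95% confidence interval) in HFD mice and LFD mice, coloured by complex; the grey band marks 1.3-fold and rings mark an FDR under 0.05. All intervals but that of *Ndufaf5* in HFD mice lie inside the band, and the rings are on *Cox7a1* and *Ndufaf5* in HFD mice.

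*Cox7a1* encodes the heart and skeletal muscle form of a small subunit of complex IV. Its signal intensity lay between 4298.6 and 5250.2 (median 4711) in the gastrocnemius and between 4756.1 and 5725 (median 5386) in the quadriceps of HFD mice. In LFD mice it lay between 4554.9 and 5104.5 (median 4697) in the gastrocnemius and between 4636.6 and 5730.7 (median 5174) in the quadriceps. The muscles overlapped in both diets, but within a mouse the gastrocnemius was the lower in 10 of 10 HFD mice and 9 of 10 LFD mice. Its log2 fold change, with the standard error, was -0.19 ± 0.05 (limma, adjusted p = 0.0135) in HFD mice and -0.12 ± 0.04 (adjusted p = 0.105) in LFD mice. The difference between the diets in this fold change was -0.07 (95% confidence interval -0.19 to 0.05). In LFD mice *Cox7a1* passed the FDR with the mouse as a random block (adjusted p = 0.0246) and not as a fixed block (adjusted p = 0.0791). Without the quadriceps arrays with *S100a9* over 100, which left 4 quadriceps arrays of HFD mice and 6 of LFD mice, its log2 fold change was -0.12 in HFD mice (adjusted p = 0.406) and -0.07 in LFD mice (adjusted p = 0.417). *Cox7a2*, the form found in most tissues, had no such difference. It averaged 6621 ± 600.1 in the gastrocnemius and 6668 ± 451 in the quadriceps of HFD mice, and 7047 ± 555 and 6931 ± 590 in LFD mice (SD, n = 10), with 95% confidence intervals of -0.13 to 0.10 and -0.09 to 0.14 for the log2 fold change.

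*Ndufaf5* encodes an assembly factor of complex I that acts as an arginine hydroxylase on a subunit of the complex. Its signal intensity lay between 145 and 191.2 (median 173) in the gastrocnemius and between 174 and 245.4 (median 216) in the quadriceps of HFD mice. In LFD mice it lay between 174.3 and 236.4 (median 192) in the gastrocnemius and between 207.9 and 251.9 (median 222) in the quadriceps. The gastrocnemius was the lower in 9 of 10 mice of each diet, with overlap between the muscles. With the standard error, its log2 fold change was -0.27 ± 0.06 (limma, adjusted p = 0.00963) in HFD mice and -0.20 ± 0.06 (adjusted p = 0.0652) in LFD mice. With the mouse as a block *Ndufaf5* passed the FDR in LFD mice (adjusted p = 0.0494 with a fixed and 0.0136 with a random block). Without the quadriceps arrays with *S100a9* over 100 the log2 fold change in HFD mice was -0.31 (adjusted p = 0.0533).

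The other assembly factors differed less. *Ndufaf3*, an early assembly factor, lay between 99.4 and 117.3 (median 105) in the gastrocnemius and between 100 and 137.8 (median 116) in the quadriceps of HFD mice. In LFD mice it lay between 89.4 and 124 (median 109) in the gastrocnemius and between 112.7 and 139.9 (median 122) in the quadriceps. The gastrocnemius was the lower in 9 of 10 HFD mice and 10 of 10 LFD mice, with overlap between the muscles, and the log2 fold changes were -0.14 (limma, adjusted p = 0.193) and -0.18 (adjusted p = 0.0557). With the mouse as a block *Ndufaf3* passed the FDR in LFD mice (adjusted p = 0.0101 fixed, 0.00512 random). *Ndufaf1*, a factor of the membrane arm, averaged 652 ± 25.5 in the gastrocnemius and 704 ± 36.5 in the quadriceps of LFD mice and was lower in the gastrocnemius of 10 of 10 of them, with an adjusted p of 0.105 and, with a random block, 0.0173, while it did not pass with a fixed block. In HFD mice it averaged 699 ± 39.5 and 686 ± 66.3. *Ndufaf4* averaged 554 ± 45.8 in the gastrocnemius and 558 ± 46.1 in the quadriceps of HFD mice, and 582 ± 60.8 and 591 ± 47.2 in LFD mice. In LFD mice 8 of 8 assembly factors had a negative log2 fold change (median -0.0362), and in HFD mice 5 of 8 had one (median -0.0266). All tested genes had medians of -0.0105 in LFD mice and -0.0162 in HFD mice. The share of them with a negative fold change was not counted, here or for the complexes below.

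Among the complex I subunits, the largest fitted difference in HFD mice was that of *Ndufs4*, an accessory subunit known from the mitochondrial disease its loss causes. It averaged 1848 ± 149 in the gastrocnemius and 1667 ± 141 in the quadriceps of HFD mice, and 1913 ± 183 and 1799 ± 142 in LFD mice, which gave log2 fold changes of 0.15 (limma, adjusted p = 0.131) and 0.09 (adjusted p = 0.47). *Ndufb5*, an accessory subunit of the membrane arm, averaged 5963 ± 293 in the gastrocnemius and 5539 ± 344 in the quadriceps of HFD mice, and 5768 ± 195 and 5486 ± 177 in LFD mice (0.11, adjusted p = 0.163, and 0.07, adjusted p = 0.23). Within a mouse, 9 of 10 gastrocnemii in each diet had the higher value. *Ndufa1*, another accessory subunit, averaged 5619 ± 237 in the gastrocnemius and 6018 ± 246 in the quadriceps of HFD mice, and 5694 ± 346 and 5897 ± 267 in LFD mice (-0.10, adjusted p = 0.127, and -0.05, adjusted p = 0.575). The muscles overlapped for each of these subunits. The core subunit *Ndufv1*, which binds NADH and flavin, averaged 3062 ± 160.5 and 2922 ± 169 in HFD mice and 3001 ± 221 and 2801 ± 155 in LFD mice, gastrocnemius first. *Ndufa3*, among the brightest probe sets of the complex, averaged 8346 ± 406 and 8393 ± 615 in HFD mice and 8182 ± 432 and 7979 ± 343 in LFD mice. *Ndufa12*, the brightest, averaged 13349 ± 1310 and 14072 ± 1461 in HFD mice and 14062 ± 967 and 14199 ± 1093 in LFD mice. It was lower in the gastrocnemius of 7 of 10 HFD mice and 8 of 10 LFD mice. Its unadjusted p was not under 0.05 in either diet (limma). Of the 33 complex I genes, 9 had a positive fold change in HFD mice and 18 in LFD mice.

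Complex II and complex III genes were close in the 2 muscles. *Sdha*, the flavoprotein that oxidises succinate, averaged 3852 ± 131 in the gastrocnemius and 3958 ± 256 in the quadriceps of HFD mice, and 3791 ± 243 and 4086 ± 181 in LFD mice. In LFD mice it was lower in the gastrocnemius of 10 of 10 mice, with a log2 fold change of -0.11 (limma, adjusted p = 0.143, with the mouse as a random block 0.0384 and as a fixed block 0.104), and in HFD mice it was lower in 5 of 10 mice (-0.04, adjusted p = 0.737). *Sdhb*, the iron-sulfur subunit, averaged 7420 ± 372 and 7548 ± 729 in HFD mice and 7193 ± 548 and 7338 ± 252 in LFD mice. Neither subunit separated the muscles. *Sdhc*, a membrane anchor, averaged 3427 ± 316 and 3196 ± 399.8 in HFD mice (0.11, adjusted p = 0.502) and 3329 ± 284 and 3349 ± 278 in LFD mice. In LFD mice 4 of 4 complex II genes had a negative fold change and in HFD mice 2 of 4. The 3′ to 5′ ratio of the *Gapdh* control probe sets, a sign of RNA quality, moved with these genes: within groups its log2 had a Pearson r of -0.83 with *Sdhc*, -0.69 with *Sdha* and -0.68 with *Sdhd*, but -0.19 with *Sdhb* (40 arrays). The median ratio was lower in the gastrocnemius than in the quadriceps of HFD mice (0.952 and 0.977) and higher in that of LFD mice (0.98 and 0.949), and its part in the values of *Sdha* and *Sdhc* was not tested. In complex III, the log2 fold changes of all 7 genes lay between -0.03 (*Uqcrfs1*) and 0.02 (*Uqcr10*) in HFD mice and between -0.07 (*Uqcrfs1*) and 0.07 (*Uqcr10*) in LFD mice. *Uqcrfs1*, the Rieske iron-sulfur protein, averaged 5603 ± 323 in the gastrocnemius and 5715 ± 380 in the quadriceps of HFD mice, and 5362 ± 267 and 5617 ± 283 in LFD mice. The fold changes of this complex were the narrowest in range of the 5 complexes in HFD mice. *Uqcrc2*, a core protein of the matrix side, averaged 6669 ± 187 and 6710 ± 276 in HFD mice and 6514 ± 286 and 6632 ± 241 in LFD mice. Cytochrome c1, encoded by *Cyc1*, averaged 6330 ± 263 and 6321 ± 389 in HFD mice and 6148 ± 219 and 6156 ± 239 in LFD mice.

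In complex IV the other muscle isoforms had smaller fitted differences between the muscles than *Cox7a1*. *Cox6a2*, the heart and skeletal muscle form, averaged 8292 ± 431 in the gastrocnemius and 8461 ± 513 in the quadriceps of HFD mice, and 8610 ± 752 and 8580 ± 397 in LFD mice. *Cox6a1*, its counterpart in most tissues, averaged 2017 ± 264 and 2056 ± 241 in HFD mice and 1896 ± 277 and 1991 ± 264 in LFD mice. *Cox8b*, the muscle form of the smallest subunit, averaged 9219 ± 743 in the gastrocnemius and 9602 ± 884 in the quadriceps of HFD mice, and 9574 ± 799 and 9153 ± 889 in LFD mice. The muscles overlapped widely for these forms in both diets. The 95% confidence intervals of the log2 fold change were -0.12 to 0.06 and -0.10 to 0.11 for *Cox6a2*, -0.19 to 0.13 and -0.25 to 0.10 for *Cox6a1*, and -0.18 to 0.06 and -0.06 to 0.19 for *Cox8b*, in HFD and LFD mice. *Cox4i1*, the common form of subunit 4, averaged 9959 ± 407 and 9597 ± 619.9 in HFD mice and 9863 ± 426 and 9625 ± 293 in LFD mice. *Cox5b* and *Cox6b1*, which have the brightest probe sets of the complex, had log2 fold changes of -0.01 and -0.04 in HFD mice and 0.04 and -0.0018 in LFD mice. *Cox8a*, the form of *Cox8b* found in most tissues, was low on this array, at 33.1 ± 3.54 and 32.3 ± 5.32 in HFD mice and 33.2 ± 3.92 and 32 ± 2.4 in LFD mice. The remaining tested genes of the complex had log2 fold changes between -0.08 (*Ndufa4*) and 0.10 (*Cox7a2l*) in HFD mice and between -0.02 (*Cox6c*) and 0.08 (*Cox7a2l*) in LFD mice.

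In complex V, *Atp5a1*, a subunit of the catalytic head, averaged 9435 ± 514 in the gastrocnemius and 9065 ± 529 in the quadriceps of HFD mice, and 9101 ± 342 and 9121 ± 467 in LFD mice. *Atp5g3*, one of the genes for the ring that turns in the membrane, averaged 10259 ± 285 and 9935 ± 451 in HFD mice and 9829 ± 298 and 10021 ± 325 in LFD mice. Fold changes of the 11 tested genes lay between -0.10 (*Atp5mpl*) and 0.06 (*Atp5a1*) in HFD mice and between -0.06 (*Atp5pb*) and 0.04 (*Atp5e*) in LFD mice on the log2 scale, and none had an unadjusted p under 0.05.

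**Figure D3:**
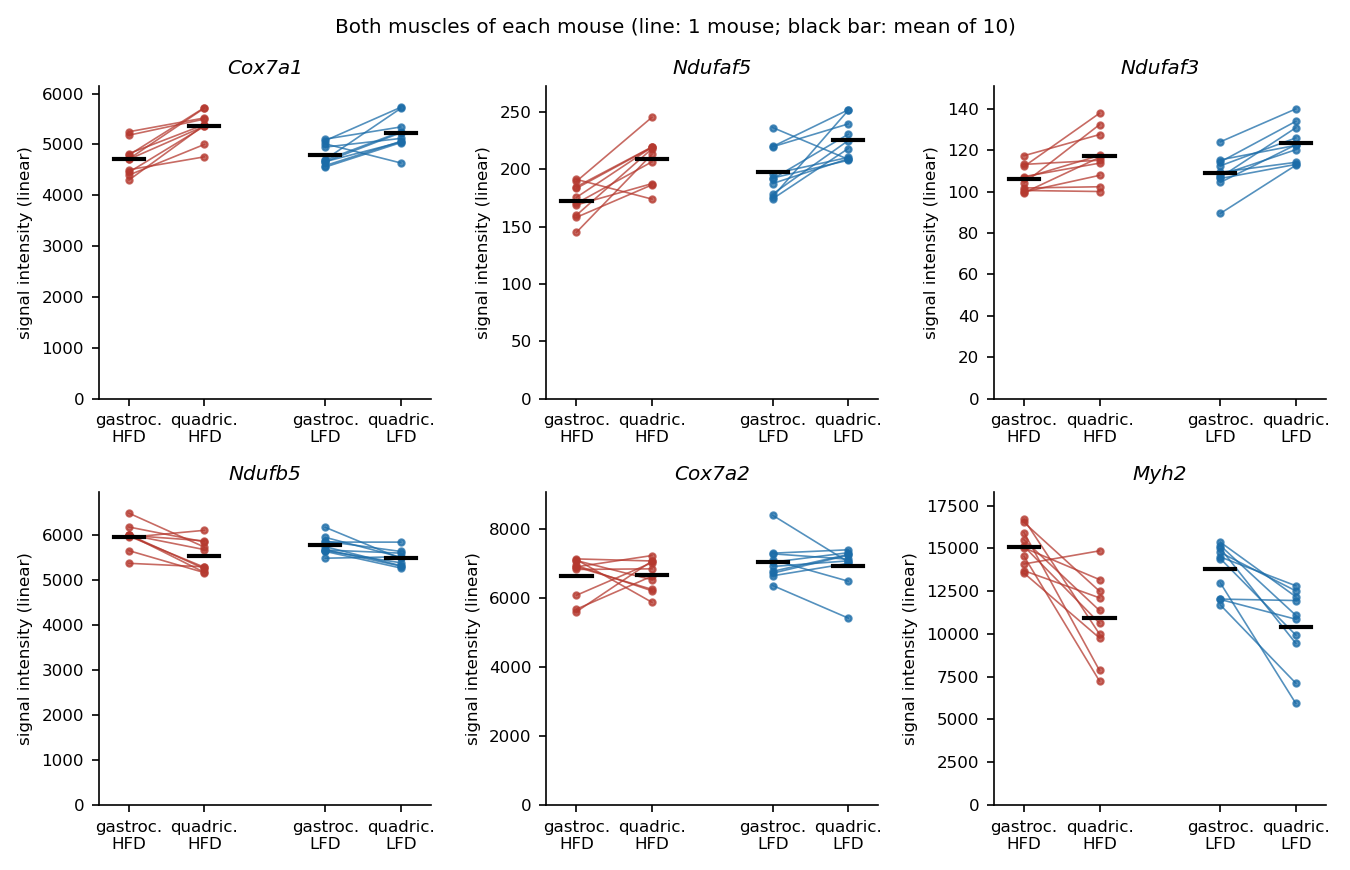
Signal intensity (vertical axis, linear) of 5 genes of the respiratory chain and of *Myh2* in both muscles of each mouse, HFD mice in red and LFD mice in blue; a line joins the gastrocnemius (left) and the quadriceps (right) of 1 mouse and black bars are means of 10. *Cox7a1* was lower in the gastrocnemius of 10 HFD mice and 9 LFD mice, *Cox7a2* of 5 and 6, and *Ndufb5* was higher in 9 of each.

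When the difference between the muscles was averaged over both diets in the model of the 4 groups, a comparison added after the data had been seen, 7 of the 76 genes passed the FDR, where 18% of all tested genes did (8.13% higher and 9.83% lower in the gastrocnemius), and none reached 1.3-fold (3.75% of all tested genes). *Ndufaf5* (log2 fold change -0.23; limma, adjusted p = 0.000106), *Cox7a1* (-0.15, adjusted p = 0.000132), *Ndufaf3* (-0.16, adjusted p = 0.00292) and *Ndufa1* (-0.08, adjusted p = 0.033) were lower in the gastrocnemius. They were lower in 18, 19, 19 and 16 of the 20 mice. *Ndufb5* (0.09, adjusted p = 0.00752), *Ndufs4* (0.12, adjusted p = 0.0318) and *Ndufv1* (0.08, adjusted p = 0.0492) were higher, in 18, 17 and 16 of the 20 mice. Without the quadriceps arrays with *S100a9* over 100, 3 genes passed: *Ndufaf5* (adjusted p = 0.00177), *Ndufb5* (adjusted p = 0.0249) and *Ndufv1* (adjusted p = 0.0493). Of the other 4, the log2 fold change was then 0.13 for *Ndufs4* (adjusted p = 0.106) and -0.07 for *Ndufa1* (adjusted p = 0.183), close to the values with all arrays, and -0.10 for *Cox7a1* (adjusted p = 0.0667) and -0.12 for *Ndufaf3* (adjusted p = 0.0796). Of the 7, *Ndufa1*, *Ndufs4* and *Ndufv1* also lost the FDR on leaving out single mice (9, 4 and 15 of the 20 mice).

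The promoters of 3 of these genes are shown, the pair that passed the FDR in HFD mice and *Ndufs4*, which had the largest positive fold change over both diets. Each window runs from 250 bases before to 50 bases after the start of the gene, 5′ to 3′ on the strand of the gene, as given by RefSeq for GRCm38.p6, with motif matches in capitals. *Cox7a1* lies at chr7:30183921-30184220 on the plus strand. It held TAACCCTAG, a match to CTANNNNTA, the loose form of the MEF2 site searched here, and no match to the other 5 motifs. *Ndufaf5* lies at chr2:140170396-140170695 on the plus strand, with CTAGTCGTAG matching the same loose form and GCGCATGCGC matching NRF1, each on both strands. *Ndufs4* lies at chr13:114388045-114388344 on the minus strand, with AAGATGGCG matching YY1.
Cox7a1: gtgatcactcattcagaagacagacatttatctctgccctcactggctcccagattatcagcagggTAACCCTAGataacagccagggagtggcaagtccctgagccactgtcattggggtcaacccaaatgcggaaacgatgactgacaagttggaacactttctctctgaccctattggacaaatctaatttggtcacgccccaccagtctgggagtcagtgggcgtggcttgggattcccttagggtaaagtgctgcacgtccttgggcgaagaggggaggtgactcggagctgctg
Ndufaf5: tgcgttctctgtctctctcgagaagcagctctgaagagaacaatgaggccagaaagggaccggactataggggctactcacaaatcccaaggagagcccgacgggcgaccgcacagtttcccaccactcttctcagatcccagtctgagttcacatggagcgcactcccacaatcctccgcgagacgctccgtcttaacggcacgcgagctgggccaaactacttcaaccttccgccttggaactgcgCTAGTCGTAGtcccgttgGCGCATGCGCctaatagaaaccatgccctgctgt
Ndufs4: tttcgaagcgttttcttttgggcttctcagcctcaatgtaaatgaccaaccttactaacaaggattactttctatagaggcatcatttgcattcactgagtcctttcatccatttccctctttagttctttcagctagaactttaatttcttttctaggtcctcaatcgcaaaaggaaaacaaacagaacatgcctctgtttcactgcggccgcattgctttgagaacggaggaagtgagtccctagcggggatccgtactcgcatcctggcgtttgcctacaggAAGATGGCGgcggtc

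Such windows were at hand for 66 of the 83 genes (70 windows), and the 6 motifs were searched on both strands in these and in all 32851 windows. GCGCANGCG, bound by NRF1, was found in 25.7% of the windows of these genes and 6.2% of all windows. CCGGAAG, bound by ETS factors such as GABPA, was found in 20% and 8.9%, AAGATGGCG, bound by YY1, in 11.4% and 1.4%, and TCAAGGTCA, bound by the estrogen-related receptors, in 2.9% and 0.4%. Of the motifs of muscle factors, CTANNNNTA, a loose form of the site bound by MEF2, was found in 12.9% and 21%, and the E-box CAGCTG, bound by myogenic factors, in 8.6% and 16.3%. The windows of these genes had a median GC content of 57.5%, against 52.7% of all windows. GCGCANGCG and CTANNNNTA can overlap themselves on the opposite strand, and such a pair was counted as 1 window. A match describes the letters of the window and does not show that a factor binds there.

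Regulators of mitochondrial genes were measured beside them, as a list of 17 genes of which 13 were tested. In the gastrocnemius 3 were higher at an FDR under 0.05 in HFD mice, and in LFD mice 2 were higher and 1 was lower. *Ppargc1a*, a coactivator of mitochondrial biogenesis, had log2 fold changes of 0.98 (limma, adjusted p = 0.00139) in HFD mice and 0.61 (adjusted p = 0.0429) in LFD mice. *Esrrg*, an estrogen-related receptor, had 0.80 (adjusted p = 0.000872) and 0.64 (adjusted p = 0.00927), and *Perm1*, a muscle regulator known to be induced by such factors, had 0.27 (adjusted p = 0.033) and 0.09 (adjusted p = 0.455). *Polg*, the polymerase of mitochondrial DNA, was lower in LFD mice (-0.34, adjusted p = 0.037). Of 29 tested assembly factors of complexes I to V whose names lie outside the rule, 0 passed the FDR in limma in either diet, with 3 and 7 at an unadjusted p under 0.05 in HFD and LFD mice. None of the 13 protein genes of mitochondrial DNA was measured here.

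The level of the 76 genes was set beside fiber type array by array. The slow myosin *Myh7* lay between 368.1 and 1121.3 in the gastrocnemius and between 4.9 and 395.8 in the quadriceps of HFD mice, and between 370 and 1487.7 in the gastrocnemius and between 3.2 and 842.6 in the quadriceps of LFD mice. Where *Myh7* was lowest, in the quadriceps of LFD mouse 142 (3.2), the level of the 76 genes was 0.0003, and in the quadriceps of HFD mice 143 and 151 (4.9 and 7.7) it was -0.0583 and -0.0787. Where *Myh7* was highest, in the gastrocnemius of LFD mouse 159 (1487.7), it was -0.0015. The highest level, 0.1211, was that of the quadriceps of HFD mouse 145, which also had the highest *Myh7* (395.8), *Myh2* (14855.3) and *S100a9* (5314.6) of its group. Among the quadriceps of LFD mice, mouse 160 had both the highest level (0.0425) and the highest *Myh7* (842.6). In the gastrocnemius of HFD mice the highest *Myh7* (1121.3) and the lowest level of all 40 arrays (-0.1228) were those of mouse 158. *Myh2* in the quadriceps of HFD mice was lowest in mice 151 (7245.5) and 143 (7865.2), which had the lowest levels of that group. In the quadriceps of LFD mice the lowest and highest *Myh2* (5934.5 and 12814.5) went with levels of 0.0003 and 0.0152. In the gastrocnemius these extremes of *Myh2* went with 0.0215 and -0.1228 in HFD mice and with -0.0058 and 0.0512 in LFD mice. The relation over all arrays was not tested.

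Between the diets, no gene of the respiratory chain passed the criteria in either muscle, and none passed the FDR alone. Over all tested genes the criteria called 0.216% for the gastrocnemius, against 0.0617% for the quadriceps, and the FDR alone 0.679% and 0.185%. At an unadjusted p under 0.05 there were 5 of 76 genes in the gastrocnemius (8.97% of all tested genes) and 1 of 76 in the quadriceps (5.68%), by limma. The 95% confidence intervals of all 76 genes lay within 1.3-fold in both muscles, as did 83.6% and 85.2% of all tested genes. The gastrocnemius had a median log2 fold change, HFD over LFD, of -0.0099 over the 76 genes and the quadriceps of -0.0068, beside -0.0156 and -0.0107 for all tested genes.

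The genes with the smallest p between the diets were assembly factors. *Ndufaf5* had log2 fold changes, HFD over LFD, of -0.19 in the gastrocnemius (limma, adjusted p = 0.189) and -0.11 in the quadriceps (adjusted p = 0.963), from the values given above. *Ndufaf6*, an assembly factor related to phytoene synthases, lay between 467.1 and 586.1 (median 536) in HFD and between 512 and 663.3 (median 584) in LFD gastrocnemius, and between 455.7 and 577.2 (median 506) in HFD and between 522 and 630.3 (median 594) in LFD quadriceps. The diets overlapped in both muscles, and its fold changes were -0.12 (adjusted p = 0.433) and -0.18 (adjusted p = 0.163). In the quadriceps 8 of 8 assembly factors had a negative fold change (median -0.0825) and in the gastrocnemius 6 of 8 (median -0.0904). The 29 tested assembly factors outside the rule had medians of -0.0490 and -0.0466, and all tested genes of -0.0107 and -0.0156. The share of all tested genes with a negative fold change was not counted. The comparisons of diets and of muscles share their arrays, so that these values are not independent of those above.

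Among the subunits, the largest fitted difference between the diets was that of *Ndufs4* in the quadriceps, with a log2 fold change of -0.11 (95% confidence interval -0.22 to 0.0022; limma, adjusted p = 0.902), and in the gastrocnemius it had -0.05 (adjusted p = 0.907). *Ndufa9*, an accessory subunit of complex I, averaged 4159 ± 185 in HFD and 3943 ± 144 in LFD gastrocnemius (0.08, limma, adjusted p = 0.469) and 4048 ± 249.8 in HFD and 3954 ± 122 in LFD quadriceps (0.03, adjusted p = 0.998). *Atp5g3* had log2 fold changes of 0.06 (adjusted p = 0.517) and -0.01 (adjusted p = 0.998), *Cox7a2* -0.09 (adjusted p = 0.703) and -0.05 (adjusted p = 0.998), and *Cox7a1* -0.03 (adjusted p = 0.94) and 0.04 (adjusted p = 0.998). In complex III *Uqcrh* had -0.06 (adjusted p = 0.705) and -0.02 (adjusted p = 0.998) and *Uqcrq* 0.06 (adjusted p = 0.861) and 0.08 (adjusted p = 0.998). By complex, the median log2 fold change in the gastrocnemius was -0.0179 for complex I, 0.0414 for complex II, 0.0419 for complex III, -0.0108 for complex IV and 0.0124 for complex V, and in the quadriceps -0.0072 for complex I, -0.0474 for complex II, 0.0193 for complex III, 0.0277 for complex IV and 0.0134 for complex V.

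**Figure D4:**
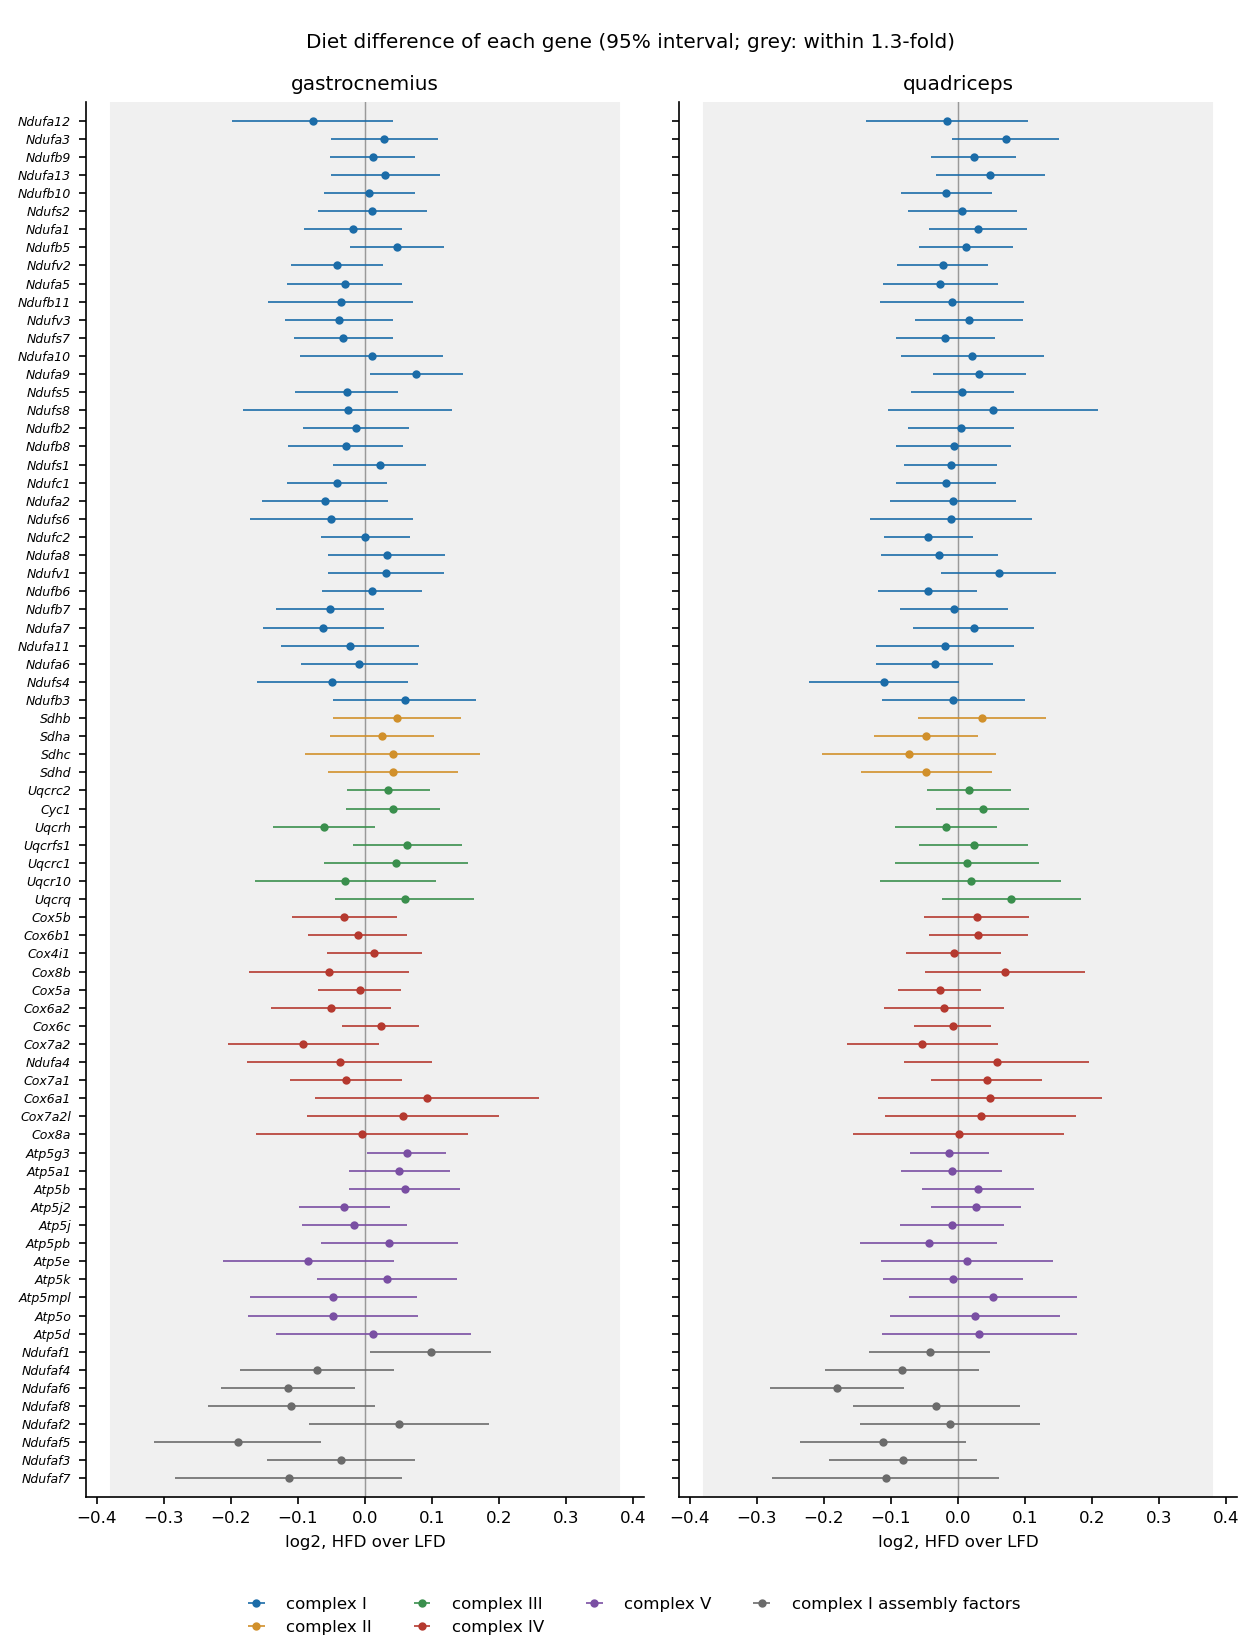
Difference between the diets for each of the 76 tested genes (horizontal axis, log2 fold change of HFD over LFD with its 95% confidence interval) in the gastrocnemius and the quadriceps, coloured by complex; the grey band marks 1.3-fold. All intervals lie inside the band, and no gene had an FDR under 0.05.

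The interaction of muscle and diet was under an unadjusted p of 0.05 for 1 of the 76 genes, *Ndufaf1* (difference of log2 fold changes 0.14, 95% confidence interval 0.01 to 0.27; limma, adjusted p = 0.9998), and for 1.82% of all tested genes. At an FDR under 0.05 it was found for 0 of 76 genes and 0% of all tested genes. Side by side, 36 of the 76 genes (47.4%) had a muscle difference of the same sign in both diets, and 73.3% of all tested genes did. The fold changes of the 76 genes in HFD and LFD mice had a Pearson r of 0.56 across genes, which are not independent replicates, and those of all tested genes 0.86.

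Within the groups the genes moved together from array to array. After the group means had been removed, the median Pearson r over the 2850 pairs of the 76 genes was 0.25, beside 0.02 for all pairs of tested genes, and 73.7% of the pairs were above 0. Pairs of the same complex had a median of 0.30 and pairs of different complexes 0.23. It was highest in complex II (0.55, 6 pairs) and lowest among assembly factors (0.17, 28 pairs). The most alike pairs joined different complexes: *Cox8b* and *Ndufs8*, a core subunit of complex I with iron-sulfur clusters (0.95), *Uqcr10* of complex III and *Ndufa7* of complex I (0.92), and *Ndufs8* and *Atp5e*, a small subunit of the central stalk of the ATP synthase (0.91). *Ndufa8* was the most like the median of the other genes (0.85). Some genes went the other way, such as *Ndufb6* (-0.33), *Ndufaf4* (-0.33) and *Cox5a* (-0.27), and the least alike pair was *Atp5pb* and *Ndufa12* (-0.84). These values describe 40 arrays of 20 mice that share their processing, and no p is given. The pairs of all tested genes were not matched for signal intensity, in which the 76 genes rank high (median percentile 97.7). The part of signal intensity in the co-variation was not tested.

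A sign of RNA quality moved with some of these genes, and with a larger share of all tested genes. The ratio of the 3′ to the 5′ control probe set of *Gapdh* had a median of 0.952 in the gastrocnemius, against 0.977 in the quadriceps, of HFD mice, of 0.98 in the gastrocnemius, against 0.949 in the quadriceps, of LFD mice, and lay between 0.903 and 1.032 on all arrays. Within groups, its log2 had an r under -0.5 with 10 of the 76 genes and over 0.5 with 5 (19.7% of the 76, and 28.8% of all tested genes). The most negative outside complex II were *Atp5pb* (-0.85) and *Atp5b* (-0.74), and the most positive *Ndufa12* (0.75) and *Ndufv2* (0.64). Of the genes past the FDR between the muscles, *Cox7a1* had an r of 0.31 and *Ndufaf5* of -0.28, and *Ndufb5* had -0.51. Its part in the co-variation and in these differences was not tested.

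**Figure D5:**
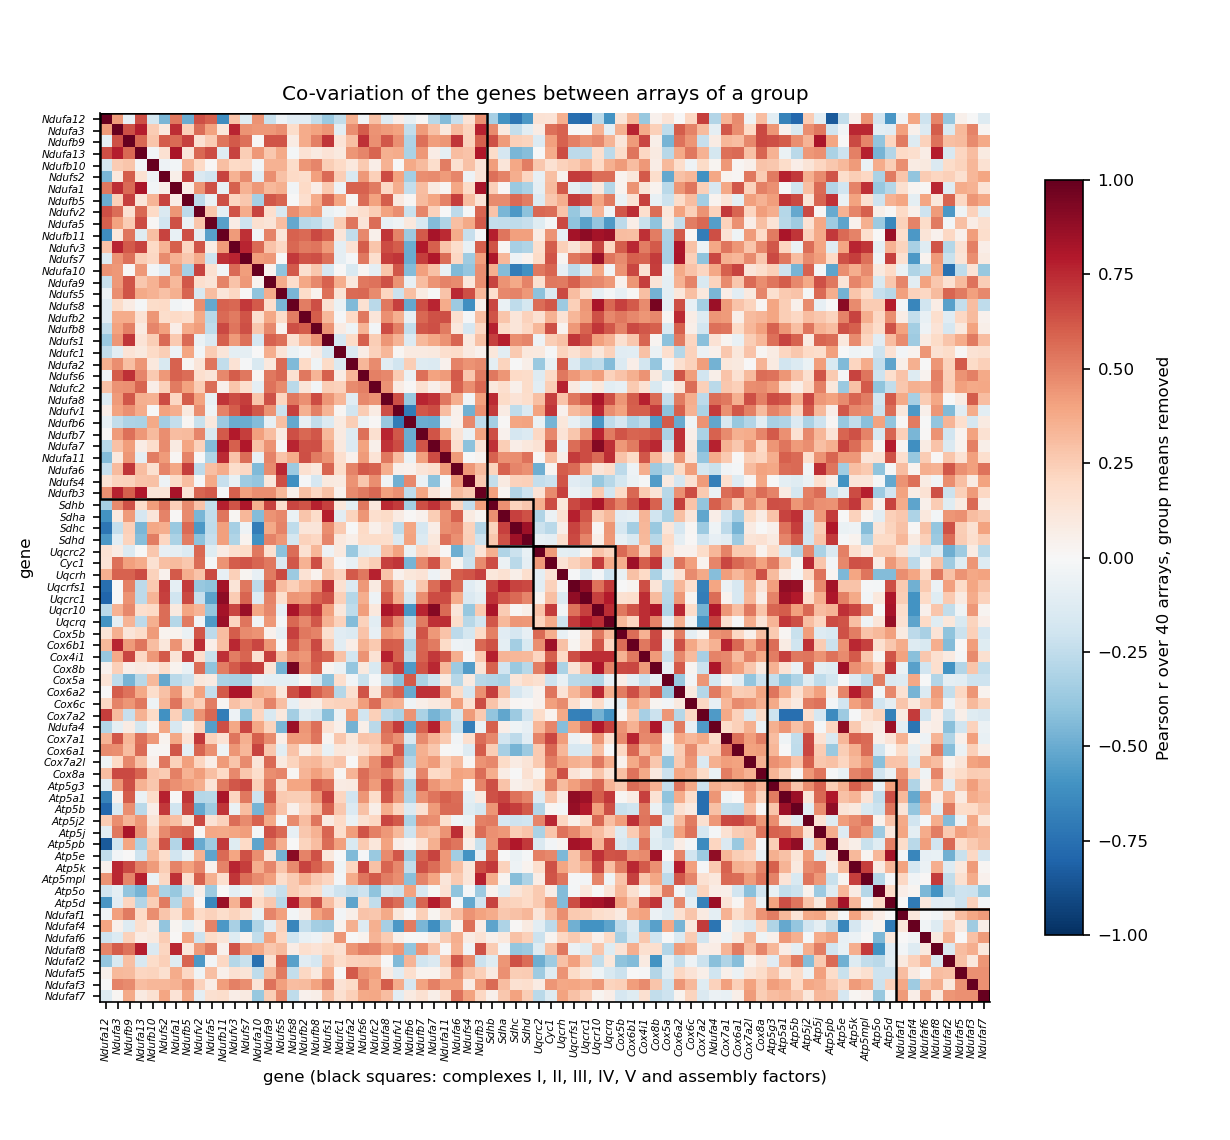
Pearson r of log2 signal intensity between the 76 genes over 40 arrays after removal of the group means (colour scale from -1 to 1), with genes on both axes ordered by complex and complexes outlined in black. Most squares are red, with a median r of 0.30 within and 0.23 between complexes, and rows such as *Ndufa12*, *Cox7a2* and *Ndufb6* hold blue squares.

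The 7 genes that did not pass the signal minimum were near background in all groups. *Cycs*, the gene of cytochrome c, had a mean signal intensity of 5.19 over the 40 arrays and lay between 4.6 and 6 in all 4 groups. *Atp5g1*, another gene for the ring of the ATP synthase, lay between 5.4 and 11.6, and *Ndufa4l2* between 8.2 and 15. *Cox4i2*, *Cox6b2*, *Cox7b2* and *Cox8c*, forms known from lung or testis, were all under 8. Cytochrome c and the ATP synthase ring are known to be abundant in muscle, and *Atp5g3*, also a gene for the ring, had a mean of 10011. Whether the low values of *Cycs* and *Atp5g1* come from the probe set or the transcript was not tested. They are no measure of the protein.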

How the data were processed

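Per the paper's methods, the authors redefined the probe sets, 1 for each Entrez gene, normalized by quantiles and summarised with GC-RMA (version: not given in the sources used here). What they deposited is the signal intensity of each gene, not log-transformed. Control probe sets (64) were left out, and gene symbols and promoter windows came from RefSeq (GRCm38.p6). The log2 of each value was fitted with limma 3.58.1, run in R 4.3.3 (figures and counts: Python 3.11.15), without the mouse as a block, with Benjamini-Hochberg adjustment over the 6479 genes with a mean signal intensity over 20. Muscles were compared within each diet (20 arrays), diets within each muscle and the interaction in a model of 4 groups (40 arrays). Calls needed an FDR under 0.05 and a fold change over 1.3. The fits were also run on simulated data with independent noise for each gene and array. Those data hold no correlation within a mouse, so that they do not test the pairing. Alternatives were other signal filters, an added constant, repeated normalization, other variance models, array weights, a stricter FDR, blocks and leaving out each mouse.

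The labels give both muscles of a mouse the same number, and deviations from the group means had a median within-mouse correlation of 0.388 in LFD mice (9 of 10 over 0.1) and -0.069 in HFD mice (3 of 10). P-values without a block measure the spread between arrays of a group, each of another mouse, and treat both muscles of a mouse as unrelated. This holds also for the model of the 4 groups, which pools the arrays of both muscles. With the mouse as a fixed block they measure the spread of the difference between the muscles of a mouse. The genes and the lists were chosen with earlier results of these data known. Genes named with values are those past the FDR, per complex the 2 with the brightest probe sets and the 1 with the smallest adjusted p per comparison, tissue isoforms, the 3 most alike pairs, and up to 3 genes per list. *Ndufs4*, *Ndufv1*, *Ndufa1* and the comparison over both diets, the *S100a9* minimum of 100, the letters of the promoter motifs, the genes named for their correlations beyond the 3 pairs and those named for fitted differences or ranges were chosen after values were seen. Genes of the chain with no probe set among the 83 were not analysed here.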

Additional observations from a re-analysis of the deposited data

Results flagged for a closer look

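In groups of 10 arrays, a gene was listed where 1 array lay apart from the other 9, with a gap over 0.466 of the range of the group. This was so for 12 of 164 groups of the named genes and 26 of 332 groups of all 83 genes, where chance gives about 1 in 20.

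Several of these arrays came from the same mice. In the gastrocnemius of LFD mouse 142, *Cox7a2* was at 8389 (the others at 6356.4 to 7293) and *Ndufaf4* at 737.3 (536 to 619.8), both high, and *Cyc1* at 5634.5 (6053.2 to 6445.5) was low. In the gastrocnemius of HFD mouse 157, *Cox7a2l* was at 135.4 (79.2 to 94.1), *Uqcrh* at 6840.9 (5725 to 6284.6) and *Cycs*, near background, at 6 (4.8 to 5.4). In the quadriceps of HFD mouse 145, whose *S100a9* of 5314.6 was the highest of all arrays, *Cox6b1* was at 13274.5 (10364 to 11739.6) and *Cox6a2* at 9711.6 (7829.8 to 8674.2).

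In the other cases *Cox5b* was at 12581.7 in the gastrocnemius of LFD mouse 148 (10594.1 to 11630.8), *Cox7a2* at 5412.9 in the quadriceps of LFD mouse 141 (6481.5 to 7391.2), *Cyc1* at 6734 in the quadriceps of LFD mouse 160 (5901.8 to 6282.6) and *Cox4i2*, near background, at 5 in the gastrocnemius of LFD mouse 160 (2.9 to 3.8). The level of all 76 tested genes was -0.1228 in the gastrocnemius of HFD mouse 158, where the other 9 lay between -0.0287 and 0.0659.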

How the results depend on the processing

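No gene of the 76 passed both criteria in any comparison or alternative, and at the FDR alone none passed between the diets or for the interaction in any. In HFD mice 2 genes passed the FDR between the muscles, 1 at an FDR under 0.01, and 0 without the quadriceps arrays with *S100a9* over 100; leaving out each mouse gave 2. In LFD mice 0 passed, against 1 with a signal minimum of 50, 3 with array weights, 2 with the mouse as a fixed replicate block, 5 with it as a random block, 2 in the model of the 4 groups and 0 to 2 when a mouse was left out (2 without mouse 141). The block changed no other count of these genes by over 1.5 times. Over both diets 7 passed, against 4 without a signal filter, 4 at an FDR under 0.01, 3 without the arrays with *S100a9* over 100 and 5 to 7 without 1 mouse. Of 1086 refits of 40 gene results, 1022 kept direction and side of the FDR. Of the others, 43 lost the FDR, 20 gained it and 1 changed sign. The sign changed for *Uqcrfs1* between the muscles in HFD mice without the arrays with *S100a9* over 100 (0.02308, limma, adjusted p = 0.904). Most of the 40 results had not passed the FDR at the start and could not lose it. The 43 losses fell on the few that had passed, so that the 1022 do not measure how firmly a pass held. The median differences of the complexes kept within their spread in all 112 refits. Over all tested genes, the count at the FDR in LFD mice was 338 without and 917 with a random block (694 with a fixed one, 759 with array weights, 150 at an FDR under 0.01, 225 without the arrays with *S100a9* over 100), and in HFD mice 429, with 213 at an FDR under 0.01 and 276 without those arrays. The counts called were 163 in LFD mice (106 at an FDR under 0.01), and between the diets 14 in the gastrocnemius (46 with array weights, 8 at an FDR under 0.01) and 4 in the quadriceps (2, 2, 1 from the quadriceps alone and 0 without those arrays); at the FDR these were 44 (172 and 16) and 12 (7, 3 and 0). Over both diets 243 were called (375 without a signal filter) and 1164 passed the FDR (692 at 0.01). Leaving out 1 mouse moved some of these counts over all tested genes by over 1.5 times. Between the muscles in LFD mice the FDR gave 201 without mouse 147. Between the diets, the gastrocnemius had 9 to 19 called (9 without mouse 154) and 28 to 53 at the FDR (28 without mouse 154, 29 without mouse 155). The quadriceps had 1 to 10 called (1 without mouse 145, 2 without mice 141, 142, 152 or 156, 7 without mice 143 or 151, 10 without mouse 144) and 7 to 21 at the FDR (7 without mice 145 or 150, 20 without mouse 151, 21 without mouse 144). The cause of these changes was not tested. A difference under the intervals given could not be seen with 10 mice per group.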

Other observations

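Genes that feed electrons into the chain or carry its products were followed as a list of 16, of which 15 were tested. In the gastrocnemius, HFD over LFD, *Etfdh*, which passes electrons from fatty acid oxidation to ubiquinone, was higher by 0.25 on the log2 scale (limma, adjusted p = 0.00336). *Etfa* (0.17, adjusted p = 0.15) and *Etfb* (0.17, adjusted p = 0.272), its electron donors, did not pass the FDR. In the quadriceps its value was 0.18 (adjusted p = 0.119), and the difference between the muscles in this effect of diet was 0.06 (95% confidence interval -0.07 to 0.20). Between the muscles, *Nnt*, the transhydrogenase of the inner membrane, was higher in the gastrocnemius of HFD mice by 0.37 (adjusted p = 0.00237), and *Coq7*, of ubiquinone synthesis, by 0.19 (adjusted p = 0.0429). In LFD mice these fold changes were 0.37 (adjusted p = 0.0594) and 0.06 (adjusted p = 0.548).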
